A study of Mus musculus with 2 samples.

Results

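Ribosome biogenesis factors and the host transcripts of small nucleolar RNAs (snoRNAs) were compared between NIH3T3 cells infected with a CCR4b shRNA retrovirus and NIH3T3 cells infected with a control RNAi retrovirus. An shRNA is a hairpin transcript that the cell turns into a silencing RNA. NIH3T3 is an immortalised mouse fibroblast line, and CCR4b, encoded by Cnot6l, is a deadenylase of the CCR4-NOT complex, which shortens poly(A) tails of mRNAs. Both cultures were grown in DMEM with 10% FBS and both carried an shRNA virus. The sources used here do not give the number of hairpins, any selection of infected cells or the time of RNA extraction. Each culture was measured on 1 Affymetrix mouse genome array, so no value has a replicate error, no test between the cultures was possible, and "higher" and "lower" compare 1 array with 1 other.

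The genes were chosen by symbol: names that start with Snhg, Utp, Nop or Nol and a digit, together with 16 named nucleolar genes. This gave 127 of the 45101 probe sets and 58 of the 18194 genes that have a probe set with a single gene symbol. Of the 16 named genes only Mrto4, a large-subunit factor, had no such probe set; a probe set it shares with its pseudogene symbols read 76.1 units after CCR4b RNAi and 107.6 units in control RNAi cells, 1.41-fold lower. The list was drawn up with results from the same arrays known, so all values of this comparison are a description. The symbols hold 3 genes not known as ribosome factors, Nol3, Nol4 and Nol4l. Nol3 encodes an inhibitor of apoptosis.

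Ribosomes are built in the nucleolus, where RNA polymerase I makes a long precursor of the ribosomal RNAs (rRNAs). The precursor is modified by snoRNA-guided particles, cut by the small-subunit processome and assembled with ribosomal proteins along separate small- and large-subunit paths. Many mammalian snoRNAs are cut out of introns of host genes, and the spliced host transcripts of the Snhg and Gas5 genes are non-coding. Demand for these factors is known to follow cell growth, and the transcription factor MYC is known to drive many of them.

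Cnot6l, the target of the hairpin, read 43.0 units after CCR4b RNAi and 102 units in control RNAi cells, 2.38-fold lower, and all 4 of its probe sets were lower. Actb and Gapdh were 1.08-fold and 1.05-fold lower. All 11 fibroblast markers were above a floor of 8.07 arbitrary units, the median of all values, on both arrays, with Col1a2 at 3993 units after CCR4b RNAi and 3700.5 units in control RNAi cells. Of the markers of other cell types, 1 of 5 epithelial, 2 of 4 blood, 0 of 3 endothelial and 1 of 3 neural genes were measured, and Cdh1, Ptprc, Pecam1 and Cdh5 were below the floor on both arrays. The measured ones read at most 38.2 units after CCR4b RNAi and at most 24.0 units in control RNAi cells. The fibroblast markers themselves had a median log2 ratio of 0.45, with 3 of 11 at least 1.5-fold higher (Col1a1, Fbln2 and Lum) and Thy1 1.70-fold lower, and their part in the results was not tested.

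Most measured genes of this set had less signal after CCR4b RNAi. A gene counts as measured when its probe set reached the floor on the brighter array. Of the 58 genes, 52 were measured, 51 of them on both arrays. Snhg3 passed only through the control RNAi array. Where a gene had several probe sets, the brightest by mean log2 signal was used for it. Of the 52 measured genes, 23 were at least 1.5-fold lower after CCR4b RNAi, and the share over all 11915 measured genes was 14.6%. In the other direction 2 were at least 1.5-fold higher, beside 11.3% of all measured genes. At 2-fold, 8 were lower and 1 was higher, beside 4.48% and 3.74% of all measured genes. A log2 ratio below 0 was found for 47 of the 52, beside 56.0% of all measured genes. The median log2 ratio of CCR4b RNAi over control RNAi was -0.52 for the 52 genes and -0.07 for all measured genes.

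The ratio leaned with signal on these arrays. With the genes cut into 10 signal classes, the median log2 ratio was -0.17 in the brightest class and 0.10 in the third dimmest. The measured members lay 33 of 52 below the lower quartile of their own signal class and 44 of 52 below its median. Weighted to the same classes, 15.4% of all measured genes passed 1.5-fold lower and 9.12% passed 1.5-fold higher.

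**Figure D1:**
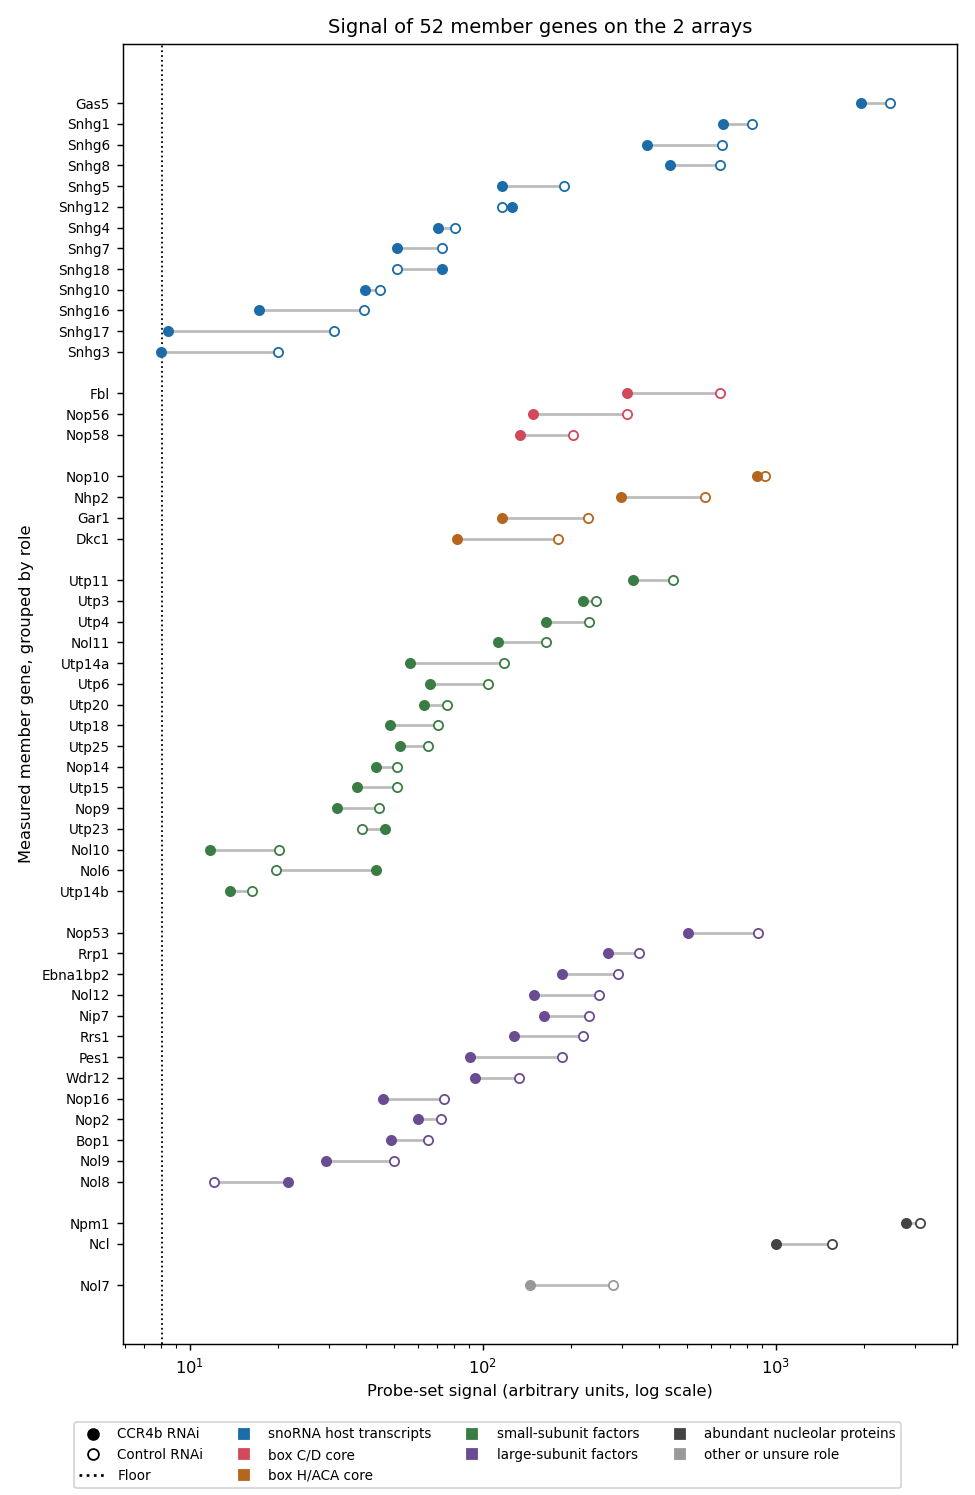
Signal of the 52 measured genes in arbitrary units on a log axis, with CCR4b RNAi as filled and control RNAi as open points, grouped by role and joined by a grey line, and the floor of 8.07 units dotted. The filled point lies left of the open one in 47 of 52 genes, and Nol6, Nol8, Snhg18, Utp23 and Snhg12 are those with the filled point to the right.

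**Figure D2:**
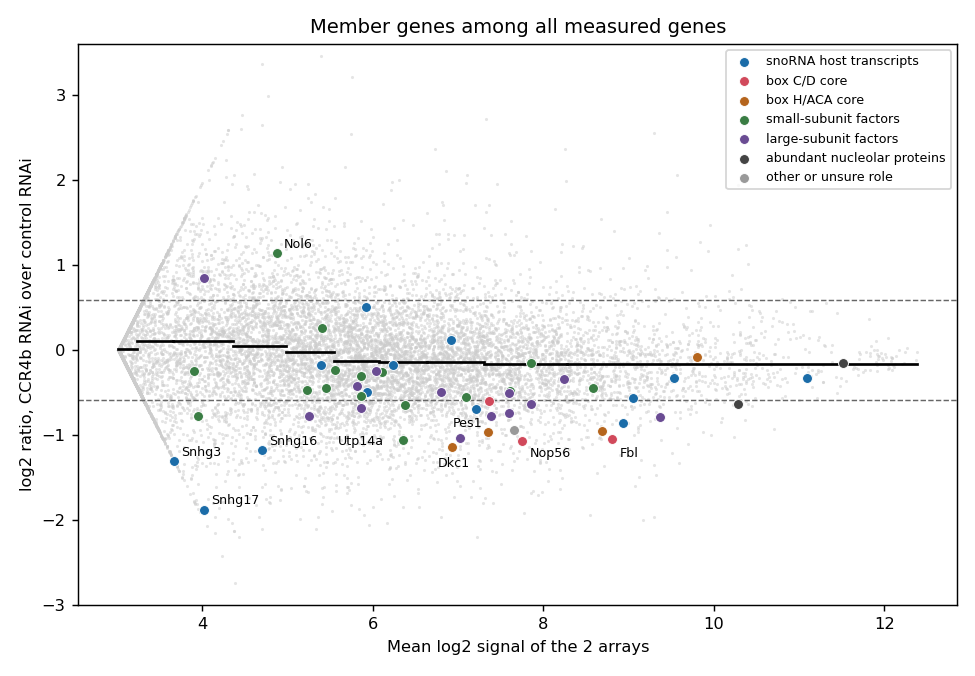
The log2 ratio of CCR4b RNAi over control RNAi is plotted against the mean log2 signal of both arrays, with all other measured genes in grey, the median of each of 10 signal classes as black bars and the 1.5-fold limits dashed. Coloured points are the 52 measured genes by role, and the labelled ones differ by at least 2-fold, with Nol6 above and 8 genes below.

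The non-coding snoRNA hosts were lower in 11 of 13 measured genes, beside 56.0% of all measured genes. The 1.5-fold limit was passed downward by 5 hosts and upward by 0, beside 14.6% and 11.3% of all measured genes. The median log2 ratio of the 13 hosts was -0.50. It was -0.34 for the 9 hosts with 50 units or more on both arrays. Several of these hosts are known to start with a run of pyrimidines, the feature by which ribosomal protein mRNAs are held back from translation when growth slows. RefSeq promoter windows of GRCm38.p6 reach from 250 bases before a gene's start to 50 bases after it and were held for 45 of the 58 genes. A start with C and at least 4 further C or T was found in 3 of 13 snoRNA hosts, in 2 of 32 other members and in 3.01% of all 27025 genes with a window. The sequences of these 3 hosts are shown because this start is what they share. Snhg1 is shown beside them, with a run of 3 letters that is too short to count as this start. Each sequence has 10 bases before the first transcribed base and 20 from it on, with the run in capitals.
Gas5 (GRCm38.p6 chr1:161035156-161035185, plus strand): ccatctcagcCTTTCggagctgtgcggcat
Snhg7 (GRCm38.p6 chr2:26640225-26640254, minus strand): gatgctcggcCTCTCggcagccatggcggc
Snhg8 (GRCm38.p6 chr3:123508317-123508346, minus strand): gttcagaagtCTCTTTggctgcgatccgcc
Snhg1 (GRCm38.p6 chr19:8723477-8723506, plus strand): tcttgtcggcCTCatttttccttgttcggg
The Gas5 start is one of its annotated starts. A run of these letters is a description and not a site.

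Among these hosts Gas5, first described as a transcript of growth-arrested fibroblasts and known to be degraded by nonsense-mediated decay, differed little. Its probe set read 1950.0 units after CCR4b RNAi and 2461 units in control RNAi cells, 1.26-fold lower. A second bright probe set gave 1921 units after CCR4b RNAi, against 2462 units in control RNAi cells. The dimmer ones read 112 units against 124 units, and 174 units against 159.9 units, CCR4b RNAi first, so the probe sets of Gas5 did not share a sign. The first of these probe sets is open to cross-hybridisation. The decay factors Upf1, Upf2, Smg1, Smg5 and Smg6 were measured as well, and 0 of 5 differed by 1.5-fold, with log2 ratios between -0.21 and 0.06. A dim Smg6 probe set was at least 1.54-fold higher.

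Snhg1, host of a row of box C/D snoRNAs, was lower on all 5 of its probe sets. The one that stands for it read 659 units after CCR4b RNAi and 832 units in control RNAi cells, and its log2 ratios ran from -0.57 to -0.01. Larger differences were seen for Snhg6, at 363 units after CCR4b RNAi against 658 units in control RNAi cells, 1.81-fold lower. Snhg5 read 116 units after CCR4b RNAi and 189 units in control RNAi cells, 1.62-fold lower. Both were well above the floor on both arrays and were read by 1 measured probe set each. Snhg8 was 1.48-fold lower, at 436 units after CCR4b RNAi and 647 units in control RNAi cells. A probe set annotated to both Snhg8 and the snoRNA Snora24, outside the rule, was 1.38-fold lower. Snhg7 read 51.1 units after CCR4b RNAi and 72.4 units in control RNAi cells, 1.42-fold lower.

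The 3 snoRNA hosts with the lowest ratios were dim on both arrays. Snhg17 read 8.42 units after CCR4b RNAi, just above the floor, and 31.1 units in control RNAi cells, 3.69-fold lower. Snhg3 was below the floor after CCR4b RNAi and read 20.1 units in control RNAi cells, at least 2.49-fold lower. Snhg16 read 17.3 units after CCR4b RNAi and 39.2 units in control RNAi cells, 2.27-fold lower. Each of these was read by a single measured probe set. Snhg10 and Snhg4 had log2 ratios of -0.17 and -0.18, and a dimmer Snhg10 probe set had 0.20. The hosts with more signal after CCR4b RNAi were Snhg18, at 72.4 units against 50.9 units in control RNAi cells, and Snhg12, at 126 units against 117 units in control RNAi cells. Neither reached 1.5-fold. Snhg11 and Snhg14 were below the floor on both arrays on every probe set.

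Genes for 3 of the core proteins of box C/D snoRNA particles, which guide 2'-O-methylation of rRNA, were in the set. All 3 were lower. At least 1.5-fold lower were 3 of 3, beside 14.6% of all measured genes. Fbl encodes fibrillarin, the methyltransferase. It read 311 units after CCR4b RNAi and 645 units in control RNAi cells, 2.07-fold lower, and 275 units against 538 units on its other probe set. Nop56, a scaffold of the particle, read 149 units after CCR4b RNAi and 312 units in control RNAi cells, 2.10-fold lower. Its other probe set was 1.91-fold lower, so for Fbl and Nop56 the probe sets gave nearly the same ratio. The brighter probe set of each is open to cross-hybridisation and the dimmer is not. Nop58, which pairs with Nop56 in the particle, read 134 units after CCR4b RNAi and 203 units in control RNAi cells, 1.52-fold lower, close to the 1.5-fold limit.

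The core of box H/ACA particles, which turn uridines of rRNA into pseudouridine, was lower in 3 of 4 genes by at least 1.5-fold, and by less in Nop10. The share over all measured genes was 14.6%. Dkc1 encodes dyskerin, the pseudouridine synthase, which also binds telomerase RNA. It was lower on all 3 probe sets, at 81.9 units after CCR4b RNAi and 181 units in control RNAi cells on the first, 2.20-fold lower, and with log2 ratios from -1.18 to -1.0 over the 3. Gar1 read 116 units after CCR4b RNAi and 228 units in control RNAi cells, 1.96-fold lower, on a single probe set open to cross-hybridisation. Nhp2 read 296 units after CCR4b RNAi and 572 units in control RNAi cells, 1.93-fold lower, and was 2.16-fold lower on its second probe set. Nop10, the smallest core protein, stood aside from these genes. Its probe sets read 865 units after CCR4b RNAi against 916 units in control RNAi cells, and 454 units against 472 units, 1.06-fold and 1.04-fold lower.

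Small-subunit factors were lower in 14 of 16 measured genes, beside 56.0% of all measured genes. Only 3 of 16 reached 1.5-fold lower, a share near the 14.6% of all measured genes, and 1 reached 1.5-fold higher, beside 11.3%. Their median log2 ratio was -0.45. Utp14a, a processome protein encoded on the X chromosome, read 56.6 units after CCR4b RNAi and 118 units in control RNAi cells, 2.09-fold lower, and was 1.87-fold lower on a dim probe set. Utp14b, a retrocopy of Utp14a known from spermatogenesis, read 13.7 units after CCR4b RNAi and 16.3 units in control RNAi cells, and the likeness of the copies leaves the assignment of their signals uncertain. Nol10 was 1.71-fold lower from dim signals, at 11.8 units after CCR4b RNAi against 20.2 units in control RNAi cells. Nol11, needed for rRNA transcription and processing, was 1.47-fold lower at 113 units after CCR4b RNAi against 165 units in control RNAi cells, and 1.66-fold lower on its next probe set.

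Probe sets of a pair of small-subunit genes contradicted each other. Nol6, a processome protein also called nucleolar RNA-associated protein, read 43.4 units after CCR4b RNAi and 19.7 units in control RNAi cells, 2.20-fold higher. Its other probe set read 10.6 units after CCR4b RNAi and 29.5 units in control RNAi cells, 2.80-fold lower. No direction can be given for Nol6. Utp6 was 1.57-fold lower on the brightest of its probe sets, at 66.3 units after CCR4b RNAi against 104 units in control RNAi cells, and 1.56-fold higher on the next, at 49.1 units against 31.5 units. Its dimmest probe set was 1.11-fold higher, at 37.9 units after CCR4b RNAi against 34.0 units in control RNAi cells, so 2 of its 3 probe sets were higher.

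The other small-subunit factors lay within 1.5-fold. Utp18, Utp4, Nop9, Utp15 and Utp11 had log2 ratios between -0.54 and -0.45. Utp25, Utp20, Nop14 and Utp3 had ratios between -0.31 and -0.15. Utp4, known as cirhin, read 165 units after CCR4b RNAi and 230.0 units in control RNAi cells. Utp11 read 327 units after CCR4b RNAi and 447 units in control RNAi cells, and 96.3 units against 111 units on its next probe set. Utp23 had a log2 ratio of 0.26 on the probe set that stands for it, open to cross-hybridisation, and values from -0.21 to 0.10 on the others. Rrp9, a protein of the U3 snoRNA particle, stayed below the floor at 3.52 units after CCR4b RNAi and 7.84 units in control RNAi cells.

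Large-subunit factors were lower in 12 of 13 measured genes, beside 56.0% of all measured genes. The 1.5-fold limit was passed downward by 7 and upward by 1, beside 14.6% and 11.3% of all measured genes. Nol9, Nol12 and Ebna1bp2 among the lower ones, and Nol8, the higher one, had probe sets of both signs. The median log2 ratio of the 13 factors was -0.64, and -0.32 with the median over probe sets. The PeBoW complex, made of the proteins of Pes1, Bop1 and Wdr12, acts in processing of the large-subunit rRNAs. Pes1 read 90.6 units after CCR4b RNAi and 186 units in control RNAi cells, 2.06-fold lower, and was 2.18-fold lower on its dimmer probe set. Bop1 read 48.7 units after CCR4b RNAi and 65.1 units in control RNAi cells, 1.34-fold lower. Wdr12 read 94.2 units after CCR4b RNAi and 133 units in control RNAi cells, 1.41-fold lower. The partners of the complex were thus lower by unequal amounts, with Bop1 and Wdr12 within 1.5-fold.

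Nop53, which recruits the exosome helicase to the maturing particle, read 501 units after CCR4b RNAi and 867 units in control RNAi cells, 1.73-fold lower, with 1.78-fold on its next probe set. Rrs1, which helps place the 5S particle, was 1.71-fold lower at 128 units after CCR4b RNAi against 219.8 units in control RNAi cells, and 1.40-fold on a probe set open to cross-hybridisation. Nol12 read 149 units after CCR4b RNAi and 249.5 units in control RNAi cells, 1.67-fold lower, but was higher on a probe set near the floor, at 8.59 units against 2.18 units, and its median over both probe sets was -0.32 log2. Nop16 read 45.7 units after CCR4b RNAi and 73.6 units in control RNAi cells, 1.61-fold lower. Ebna1bp2 was 1.55-fold lower at 186 units after CCR4b RNAi against 289 units in control RNAi cells, with 15.6 units against 11.7 units on a dim probe set.

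Nol9 and Nol8 depended on the probe set. Nol9, a polynucleotide kinase of rRNA processing, was 1.71-fold lower on the probe set that stands for it, at 29.2 units after CCR4b RNAi against 49.9 units in control RNAi cells. Its other 4 had log2 ratios of -0.10, -1.58, 0.26 and 0.06. Nol8 was 1.80-fold higher, at 21.7 units after CCR4b RNAi against 12.1 units in control RNAi cells, but at least 1.77-fold lower on a probe set that was below the floor after CCR4b RNAi. The remaining measured factors were Nip7, Rrp1 and Nop2, a methyltransferase of the large rRNA, with log2 ratios of -0.51, -0.34 and -0.25. Rrp1 was 1.52-fold lower on its second probe set, at 172 units after CCR4b RNAi against 261 units in control RNAi cells.

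The abundant nucleolar proteins differed from each other. Ncl, which encodes nucleolin, a protein of rRNA transcription and early processing and itself a host of snoRNAs, read 999.6 units after CCR4b RNAi and 1561 units in control RNAi cells, 1.56-fold lower. It was 1.78-fold lower on its second probe set and 1.81-fold lower on another, and 1.09-fold higher on 1 more. Npm1, which encodes nucleophosmin, a chaperone of nucleolar assembly, read 2783 units after CCR4b RNAi and 3096 units in control RNAi cells, 1.11-fold lower, and 1.16-fold on its other probe set. Npm1 thus lay close to the median of its signal class and Ncl below its lower quartile. Nol7, a nucleolar protein whose role was left unassigned, was 1.92-fold lower at 145 units after CCR4b RNAi against 279 units in control RNAi cells, but 1.69-fold higher on a dim probe set. Nol3, Nol4 and Nol4l were below the floor on the probe set that stands for them.

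Of the 29 genes with several measured probe sets, 16 were lower on every one, 0 were higher on every one and 13 had both signs. The contrary signs came mostly from dim probe sets. Among the 56 probe sets of the group with at least 50 units on both arrays, 52 had a log2 ratio below 0, 25 were at least 1.5-fold lower and 0 were at least 1.5-fold higher. Of all 7721 probe sets that bright, 63.6% had a ratio below 0, 13.2% were 1.5-fold lower and 5.50% were 1.5-fold higher. Among the 41 measured probe sets under 50 units on both arrays, 25 had a ratio below 0, little above the 56.0% of all measured genes. Of these 41 probe sets, 11 were past 1.5-fold lower and 4 past 1.5-fold higher. The shares over all measured probe sets were 14.4% and 12.7%. These shares include bright probe sets, so they are not matched to the dim ones. The limit of 50 units was chosen after the values were seen. Over 4550 genes, the robust SD among log2 ratios of the same gene's probe sets was 0.33.

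**Figure D3:**
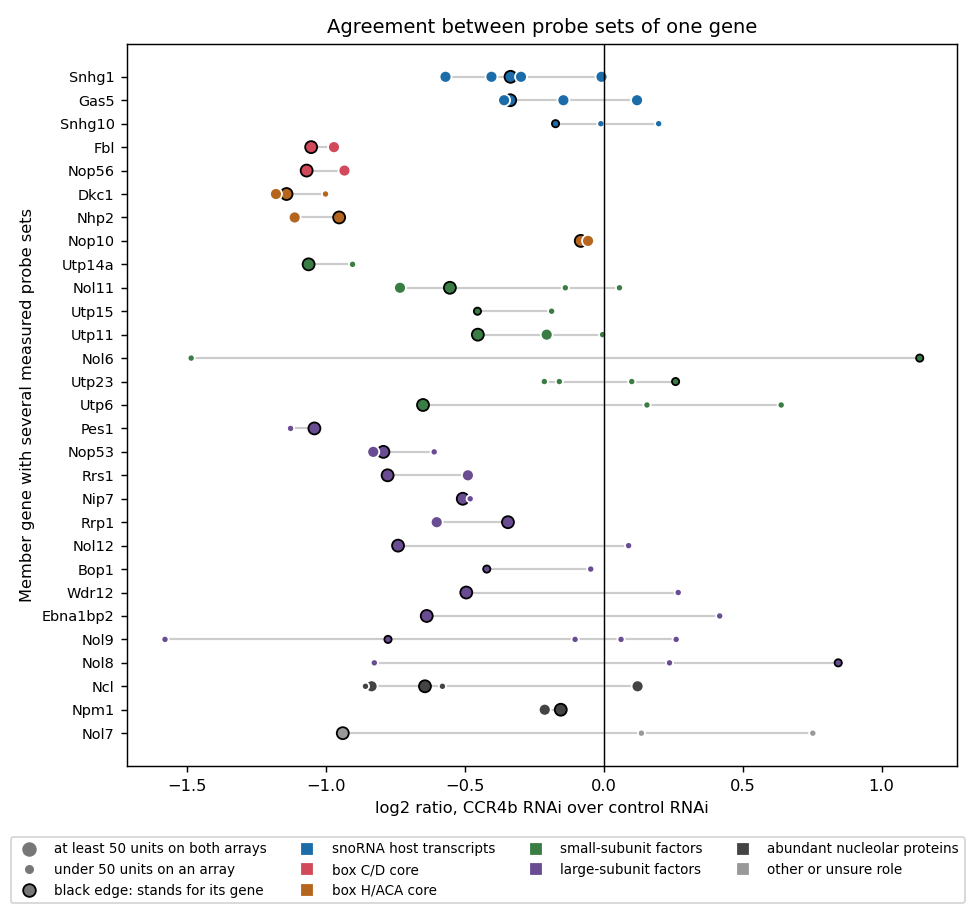
The log2 ratio of CCR4b RNAi over control RNAi is shown for every measured probe set of the 29 genes with several, coloured by role, with large points for at least 50 units on both arrays, small points otherwise and a black edge on the one that stands for its gene. Fbl, Nop56, Dkc1, Nhp2, Pes1 and Utp14a have tight ratios near -1, whereas Nol6, Nol7, Nol8, Nol9 and Utp6 cross 0.

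Promoters were searched for CACGTG, the E-box that MYC and related factors are known to bind. Its letters read the same on both strands. The 300-base window held it in 8 of 45 genes with a window, and in 8.09% of all 27025 genes. All 8 were protein-coding factors, Pes1, Nol11, Utp18, Utp4, Utp25, Utp20, Nop2 and Utp14b, and 0 of 13 snoRNA hosts held it. Their log2 ratios ran from -1.04 for Pes1 to -0.24 for Utp14b. Windows of 30 bases around the E-box (capitals) are shown for 4 of these genes to place it against the start.
Pes1 (GRCm38.p6 chr11:3963965-3963994, plus strand): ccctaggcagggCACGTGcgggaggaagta
Nol11 (GRCm38.p6 chr11:107189407-107189436, minus strand): cttgagcgttcgCACGTGgtctagactcca
Utp18 (GRCm38.p6 chr11:93885769-93885798, minus strand): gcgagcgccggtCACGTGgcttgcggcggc
Nop2 (GRCm38.p6 chr6:125131811-125131840, plus strand): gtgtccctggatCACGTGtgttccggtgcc
The first letter of the E-box lay 2 bases after the annotated start in Pes1 and 43, 20 and 60 bases before it in Nol11, Utp18 and Nop2. Of the 8 genes with these letters, only Pes1 was at least 1.5-fold lower, beside 14.6% of all measured genes. Dkc1, Nop56, Nhp2 and Gar1, which were about 2-fold lower, did not hold them in this window, and Fbl had no window. Sites outside the window were not searched, and the part of these letters in the lower signals was not tested.

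Myc itself read 39.1 units after CCR4b RNAi and 83.7 units in control RNAi cells, 2.14-fold lower, on a single probe set. Of its partners and antagonists, Mxd1, an antagonist, read 20.3 units after CCR4b RNAi and was below the floor in control RNAi cells, at least 2.51-fold higher. The other 6 measured genes of the MYC network lay within 1.5-fold on the probe set that stands for them, but Mxd3 was 1.89-fold and 2.54-fold lower on its dimmer ones and Mxd4 was at least 2.73-fold higher on its dimmest. The median log2 ratio of the 8 genes was 0.15. Of 2 measured genes of the p53 axis, Cdkn1a, a cell cycle inhibitor, read 481 units after CCR4b RNAi and 244.5 units in control RNAi cells, 1.97-fold higher, and Mdm2 was 1.46-fold higher. The part of these genes in the lower signals was not tested.

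Other genes of ribosome synthesis, listed by function and not by the symbol rule, were read in 5 lists. Of their 110 measured genes, 29.1% (32 genes) passed 1.5-fold lower and 1 gene passed 1.5-fold higher, beside 14.6% and 11.3% of all measured genes. The median log2 ratio of the 110 was -0.42. Factors that assemble snoRNA particles were the nearest neighbours in function of the Fbl and Dkc1 groups, and 6 of 11 were at least 1.5-fold lower with a median of -0.66. Ruvbl2, an ATPase of the assembly chaperone, read 131 units after CCR4b RNAi and 293 units in control RNAi cells, 2.23-fold lower. Znhit3 was 2.02-fold, Rpap3 1.81-fold and Nolc1, a nucleolar phosphoprotein, 1.69-fold lower.

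Among other small-subunit factors 7 of 34 (20.6%) passed 1.5-fold lower, beside 14.6% of all measured genes, and 0 passed 1.5-fold higher, and the median log2 ratio was -0.44. Nob1, the endonuclease of the last cut of 18S rRNA, read 44.7 units after CCR4b RNAi and 118 units in control RNAi cells, 2.65-fold lower. Heatr1 and Bysl were 2.08-fold and 2.04-fold lower, and Wdr75 was 1.76-fold lower. Other large-subunit factors were at least 1.5-fold lower in 14 of 42 (33.3%) and at least 1.5-fold higher in 1, with a median of -0.39. Rrp15 read 47.9 units after CCR4b RNAi and 114 units in control RNAi cells, 2.38-fold lower. Pa2g4 was 2.06-fold and Gtpbp4 1.93-fold lower, and Pa2g4 was 1.25-fold and 1.34-fold lower on its next probe sets but 1.07-fold and at least 1.68-fold higher on the dimmest. Wdr18 was 2.29-fold lower by the brightest of its probe sets but 1.95-fold higher by the next. Surf6 was 2.18-fold higher, at 32.3 units after CCR4b RNAi against 14.8 units in control RNAi cells, with a second probe set that was lower.

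RNA polymerase I and its factors had 3 of 15 genes past 1.5-fold lower and 0 past 1.5-fold higher, beside 14.6% and 11.3% of all measured genes, with a median log2 ratio of -0.27. These were Polr1b, the second-largest subunit, at 31.0 units after CCR4b RNAi against 54.8 units in control RNAi cells, and Taf1c and Taf1d, which were 1.69-fold and 1.56-fold lower on probe sets open to cross-hybridisation. Taf1d had log2 ratios from -0.25 to 0.53 on its others. All 8 measured subunits of RNase MRP and P had a log2 ratio below 0, beside 56.0% of all measured genes, with a median of -0.52. Of the 8 subunits, 2 passed 1.5-fold lower, Pop7 by 1.82-fold and Rpp30 by 1.63-fold, beside 14.6% of all measured genes. Protein-coding genes that host snoRNAs in their introns were below 0 in 12 of 13, beside 56.0% of all measured genes, with a median of -0.25. Set against the medians of their signal classes, these hosts had a median difference of -0.08, and 10 of 13 lay below. Of the 13 hosts, 2 passed 1.5-fold lower, Hspa9 by 1.85-fold and Eif4a1 by 1.51-fold. That share of 15.4% is near the 14.6% of all measured genes. Cytosolic ribosomal protein genes, taken by symbol after the values were seen, were below 0 in 36 of 38, beside 56.0% of all measured genes. Of these 38 genes, 2 passed 1.5-fold lower and 1 passed 1.5-fold higher, beside 14.6% and 11.3% of all measured genes. Their median was -0.19. Set against the medians of their signal classes, they had a median difference of -0.02, and 21 of 38 lay below. The difference between the ribosome factors and the ribosomal proteins was not tested.

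**Figure D4:**
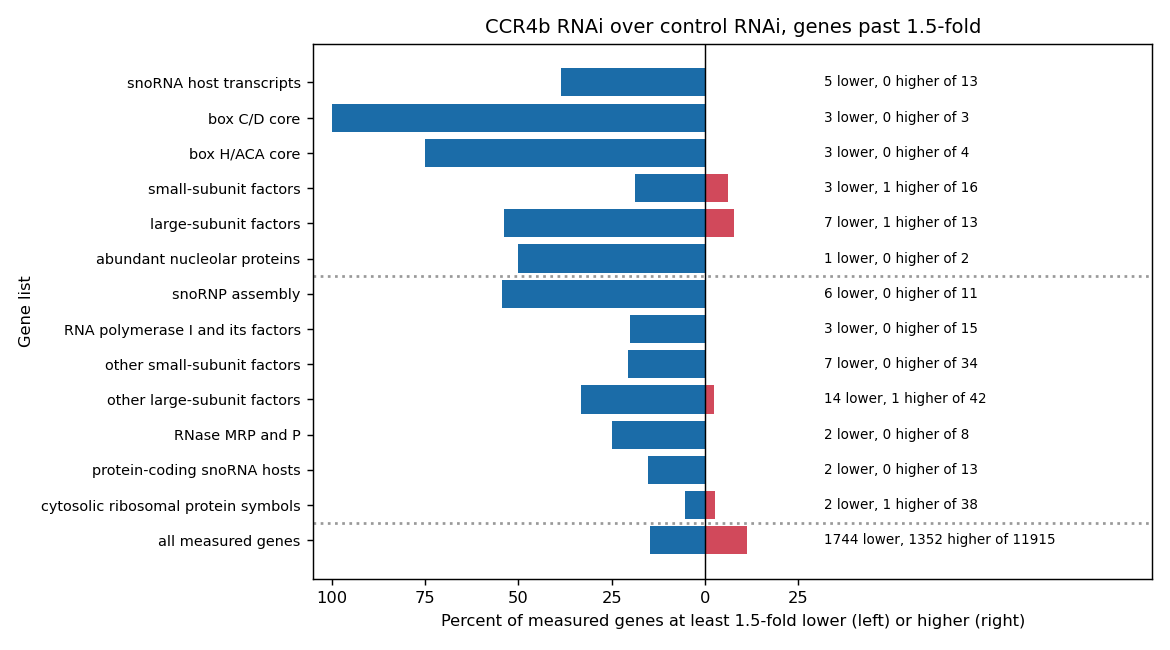
Percent of measured genes at least 1.5-fold lower (left, blue) and higher (right, red) after CCR4b RNAi over control RNAi for 6 role groups of the set, 7 further lists and all 11915 measured genes, with the counts written beside the bars. The left bars of the box C/D and box H/ACA cores, at 3 of 3 and 3 of 4 genes, reach furthest, and that of all genes ends at 14.6%.

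The array's probe sets for 18S rRNA read 378, 164 and 131 units after CCR4b RNAi, against 825, 193 and 155 units in control RNAi cells, for the 5', middle and 3' parts. 18S rRNA has no poly(A) tail, and the part of these signals in the results was not tested. Fewer growing cells and less of each RNA per cell cannot be told apart in such bulk RNA.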

How the data were processed

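The authors deposited linear intensities, 1 per probe set and array. They made them with GCOS, Affymetrix's analysis software, by a global normalization, per the labels and design text; the submitters' processing notes also name GCOS. For its version, scaling target, detection calls and a genome build, nothing is stated in the sources used here. The 2 arrays, 1 per group, had upper quartiles of 35.8 units (CCR4b RNAi) and 35.9 units (control RNAi), and the number of arrays limits the precision. The platform annotation gave 34958 probe sets a single symbol, 932 several and 9211 none, and 34754 of the first kind matched a RefSeq gene of GRCm38.p6.

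Intensities were raised to a floor at the 50th percentile of all values (8.07 units) and the log2 ratio (CCR4b RNAi over control RNAi) was taken per probe set in Python 3.11.15, numpy 2.4.6 and pandas 2.3.3. A ratio against the floor is a bound, written "at least". Probe sets ending in _x_at or _s_at were taken as open to cross-hybridisation. Classes of signal were 10 equal groups of measured genes by mean log2 signal. With 1 array per group there is no p-value, and genes were counted past 1.5-fold and 2-fold. Each member past 1.5-fold on any measured probe set was named, and up to 4 genes per direction of each further list.

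The members, roles and lists were chosen with earlier results of these data known. Alternatives were other scalings, floors, a median over probe sets, probe sets without cross-hybridisation and a limit of 50 units added later. The calculation was tested on simulated arrays with known changes. Promoter sequences are those of RefSeq, GRCm38.p6.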

Additional observations from a re-analysis of the deposited data

How the results depend on the processing

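The count of genes at least 1.5-fold lower, 23 as reported, lay between 17 and 29 under every alternative, including a limit of 50 units on both arrays chosen after seeing the data (17 of 36 genes). The share of all measured genes moved too. It was 19.0% under array median scaling, where the count was 29, and 12.6% under loess, where the count was 17. It was 21.6% with a floor at the 25th percentile, where the count was 25, and 13.2% with the 50-unit limit. The count at least 1.5-fold higher, 2 as reported, was 4 with a floor at the 25th percentile or none, and 0 with a floor at the 75th percentile, the median over probe sets or the 50-unit limit. The share of all measured genes, 11.3% as reported, was 19.8% with the 25th percentile and 19.5% with no floor. It was 6.48% with the 75th percentile, 10.2% with the median over probe sets and 5.32% with the 50-unit limit. At 2-fold, 8 lower became 4 under quantile normalization or loess correction and 5 with the 75th percentile or the 50-unit limit. The 1 higher became 3 with the lower floor or none, and 0 with the 75th percentile, the median over probe sets or the 50-unit limit. No share of all measured genes stands beside these 2-fold counts.

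The median log2 ratio was -0.60 under array median scaling and -0.42 under quantile normalization (54 members measured in each), -0.42 under loess (52) and -0.33 with the median over probe sets (53). For snoRNA hosts it was -0.60, -0.40 and -0.39 under these 3 scalings, -0.34 with the 25th percentile, no floor or the 50-unit limit, and -0.33 with the 75th percentile. For small-subunit factors it was -0.55, -0.33 and -0.33, and -0.28 with the median over probe sets. For large-subunit factors it was -0.73, -0.46 and -0.46, and -0.32 with the median over probe sets. The box C/D core had -0.86 under quantile normalization and the box H/ACA core -0.79 under loess. Genes of unsure role had -0.53 under array median scaling, -0.40 under quantile normalization, -0.23 with the 25th percentile, -0.27 with no floor and -0.042 with the median over probe sets. With that median, Nol6 (-0.17), Nol7 (0.14) and Utp6 (0.16) turned sign because their probe sets oppose each other, and Nol12 (-0.32), Nol9 (-0.10) and Ebna1bp2 (-0.11) were no longer 1.5-fold lower; for the other values the cause was not tested. Array median scaling moved the median of all measured genes to -0.16.

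No paired analysis was possible because each group has 1 array, and leaving out an array would leave no comparison. Differences near 1.5-fold or near the floor have no measure of array noise beside them.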
